A study of Mus musculus with 24 samples.

Results

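A set of 10 genes used as markers of the thalamus were followed through every RNA library of striatal tissue from mice that differed in Cntnap2 genotype and in prenatal stress. The members are a named list, 10 of the 37289 genes in the deposited tables, and membership used no threshold on the values. The list was, however, chosen with earlier results of these data known. Counts of its genes beside the share of all genes therefore describe these data and are not independent support. They are Prkcd (ENSMUSG00000021948.8), Ramp3 (ENSMUSG00000041046.7), Slc17a6 (ENSMUSG00000030500.5), Tcf7l2 (ENSMUSG00000024985.11), Lef1 (ENSMUSG00000027985.8), Rora (ENSMUSG00000032238.10), Synpo2 (ENSMUSG00000050315.5), Plekhg1 (ENSMUSG00000040624.11), Gbx2 (ENSMUSG00000034486.7) and Shox2 (ENSMUSG00000027833.8).

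All 12 mice were female C57BL/6, and each gave 1 library, 3 per group. WT control mice were wild type for Cntnap2 and had no prenatal stress. Het control mice were heterozygous for Cntnap2 and had no prenatal stress. WT stress and het stress mice had the same 2 genotypes and were born to dams given 7 days of variable stress from embryonic day 12.5. All offspring were ear-tagged at postnatal day 12 and weaned at day 18, and were killed 2 hours after lights on; their age at death and the kind of Cntnap2 allele were not stated in the labels. About 30 mg of striatum was taken by micropunch between 1.53 and -0.95 mm from bregma, so a library is a mixture of all cells in the punch. In such tissue, more cells of a type and more RNA per cell cannot be told apart. Nothing in the labels ties a replicate number to a litter, and littermates may be in 1 group; each p-value is therefore set against the spread among these mice only. For het control replicate 1, the animal number on the RNA table differs from that in its label.

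The thalamus is a relay of sensory and motor signals to the cortex and a major source of excitatory input to the striatum, lying behind and medial to it. Its excitatory relay neurons release glutamate through the vesicular transporter encoded by Slc17a6 (VGLUT2), whereas neurons of the cortex mostly use Slc17a7 and the spiny neurons of the striatum release GABA. During development, homeodomain factors such as Gbx2 and Shox2 and the Wnt effectors Tcf7l2 and Lef1 take part in setting thalamic identity, and several of these genes stay on in adult thalamic neurons. None of the 10 is specific to the thalamus in the whole body or brain: Prkcd also marks neurons of the central amygdala, and Lef1 and Tcf7l2 are also used by endothelial and oligodendrocyte-lineage cells.

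The promoters of Ramp3 and Shox2, which varied together, of Rora and Synpo2, and of 2 members with a TCF/LEF motif are shown first. Rora and Synpo2 varied together with Lef1 and Plekhg1, whose windows are not shown. All are RefSeq windows on build GRCm38.p6, from 250 bases before to 50 bases after a start. Those shown are printed 5′ to 3′ on the gene's strand. RefSeq held 16 such windows for the 10 members. The motifs searched on both strands were CTTTG followed by 2 letters that are each A or T, as bound by TCF and LEF factors, and AGGTCA, the core letters bound by ROR factors such as that encoded by Rora; the motifs do not overlap one another in these windows. A match is in capitals.
Ramp3, chr11:6658283-6658582, + strand: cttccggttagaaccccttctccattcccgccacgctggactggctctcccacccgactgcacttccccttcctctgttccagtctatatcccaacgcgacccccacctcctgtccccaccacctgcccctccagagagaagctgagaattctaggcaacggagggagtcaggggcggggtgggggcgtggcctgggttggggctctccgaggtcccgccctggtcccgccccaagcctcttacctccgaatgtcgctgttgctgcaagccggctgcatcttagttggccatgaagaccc
Shox2, chr3:66981722-66982021, - strand: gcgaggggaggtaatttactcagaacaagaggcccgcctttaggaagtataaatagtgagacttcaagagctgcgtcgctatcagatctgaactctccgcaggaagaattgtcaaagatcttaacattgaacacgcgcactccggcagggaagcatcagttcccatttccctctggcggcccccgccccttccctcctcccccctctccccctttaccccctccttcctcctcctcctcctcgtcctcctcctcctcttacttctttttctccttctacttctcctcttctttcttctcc
Rora, chr9:68653536-68653835, + strand: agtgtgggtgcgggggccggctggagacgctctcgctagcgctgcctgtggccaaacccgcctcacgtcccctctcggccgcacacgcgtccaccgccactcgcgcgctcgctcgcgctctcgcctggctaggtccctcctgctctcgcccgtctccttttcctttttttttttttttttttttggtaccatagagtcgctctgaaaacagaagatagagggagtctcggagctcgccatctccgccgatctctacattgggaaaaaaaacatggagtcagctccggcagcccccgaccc
Synpo2, chr3:123236100-123236399, - strand: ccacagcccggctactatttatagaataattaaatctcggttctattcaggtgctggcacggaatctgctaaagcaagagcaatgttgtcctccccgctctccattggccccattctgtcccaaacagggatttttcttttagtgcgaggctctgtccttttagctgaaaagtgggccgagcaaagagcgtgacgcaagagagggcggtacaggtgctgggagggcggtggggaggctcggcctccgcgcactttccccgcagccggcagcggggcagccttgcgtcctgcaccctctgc
Tcf7l2, chr19:55895071-55895370, + strand: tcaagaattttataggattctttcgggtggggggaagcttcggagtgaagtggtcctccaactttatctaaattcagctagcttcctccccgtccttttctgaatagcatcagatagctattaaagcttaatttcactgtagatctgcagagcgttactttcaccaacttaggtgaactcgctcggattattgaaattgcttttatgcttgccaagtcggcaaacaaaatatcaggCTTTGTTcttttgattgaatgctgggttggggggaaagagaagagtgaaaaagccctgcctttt
Prkcd, chr14:30610261-30610560, - strand: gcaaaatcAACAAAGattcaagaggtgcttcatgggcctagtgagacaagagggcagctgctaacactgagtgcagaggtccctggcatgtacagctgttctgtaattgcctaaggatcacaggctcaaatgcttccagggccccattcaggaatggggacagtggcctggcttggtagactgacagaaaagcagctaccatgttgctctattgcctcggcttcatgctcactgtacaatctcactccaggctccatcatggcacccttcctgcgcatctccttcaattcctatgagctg

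The Ramp3 and Shox2 windows hold no match to either motif family, and neither do those of Rora, Synpo2 and Plekhg1. Lef1, which varied with these last genes, has a match in 1 of its windows. A TCF/LEF match stands in 3 of the 16 member windows, beside 16.87% of all 32841 mouse windows of the same length. In the Tcf7l2 window CTTTGTT lies 14 bases before the start, in the Prkcd window a match on the other strand lies 242 bases before it, and the third match is in a Lef1 window, chr3:131156044-131156343, 147 bases before its start. The Prkcd and Tcf7l2 matches are each in 1 of 2 windows of their gene. AGGTCA was in 0 of the 16 windows, beside 16.26% of all. GC content ran from 42% (Tcf7l2, the window shown) to 70.0% (the other Tcf7l2 window), around a median of 52.7% over all windows; of the windows shown, Ramp3 has 63.7%, Shox2 53.3%, Rora 60.3% and Synpo2 57.3%. These are matches of letters only.

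Levels are given as TPM, the share of transcripts that RSEM assigned to a gene after scaling by its length, so they can be compared between genes. Ramp3 and Prkcd were the most abundant members and Gbx2 and Shox2 the least, and WT control replicate 3 had the highest TPM of the 12 libraries for all 10 (the plot of TPM by group). Library totals ran from 13587154 to 24039706 expected counts, with all 6 het libraries deeper than all 6 WT libraries. Of all 15955 genes tested, 19.22% had their highest TPM in WT control replicate 3 and 31.84% in WT stress replicate 3. On CPM, the share of counts scaled by TMM and not by length, 9 of the 10 members were highest in WT control replicate 3, beside 15.0% of all genes; the exception, Gbx2, was highest in het control replicate 3. The lowest TPM of 5 members was in het control replicate 1, which held the lowest TPM of 53.16% of all genes.

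**Figure D1:**
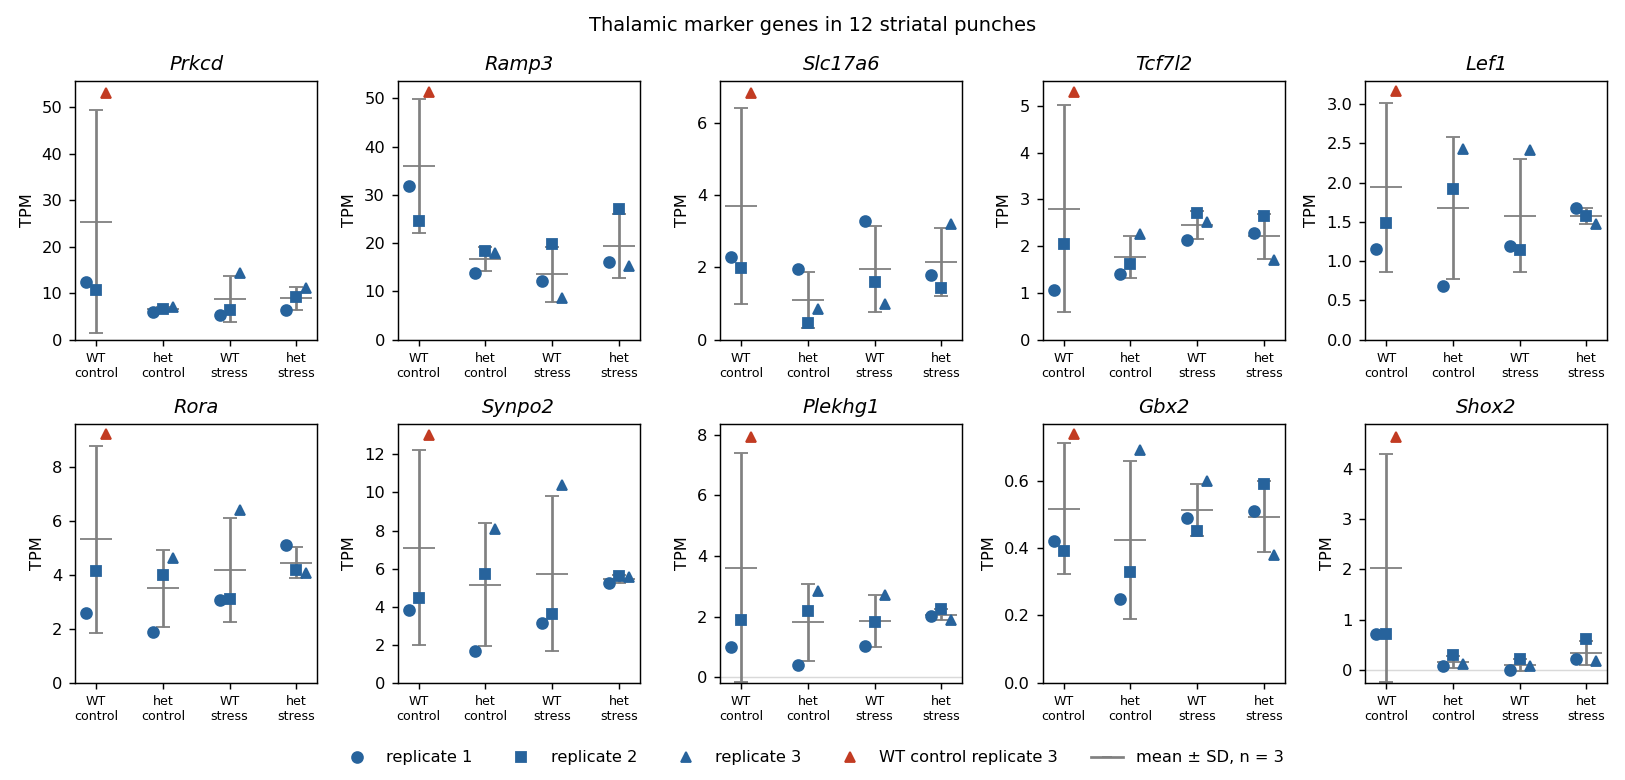
TPM (vertical axis, linear) of each thalamic marker in the 4 groups; each symbol is 1 mouse, its shape gives the replicate number, and the grey lines are the mean and SD of 3 mice. WT control replicate 3, in red, is the highest of the 12 libraries in every panel, for example at 53.0 TPM for Prkcd and 4.65 TPM for Shox2.

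Among the genes for neuronal signalling, Prkcd encodes protein kinase C delta, which is abundant in thalamic relay neurons. Its TPM was 12.3, 10.8 and 53.0 in WT control replicates 1 to 3, 6.03, 6.55 and 7.04 in het control, 5.32, 6.31 and 14.4 in WT stress, and 6.28, 9.20 and 11.1 in het stress. All 3 WT control mice lay above all 3 het control mice, whose values were close together (6.54 ± 0.505, SD, n = 3), while the WT control mean of 25.4 ± 24.0 (SD, n = 3) was carried by 1 mouse. WT stress replicate 3 lay above WT control replicates 1 and 2, so on TPM these 2 groups overlapped. 

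Ramp3 encodes receptor activity modifying protein 3, a partner that sets the ligand preference of calcitonin family receptors. Its TPM was 31.9, 24.6 and 51.4 in WT control, 13.9, 18.3 and 18 in het control, 12.1, 19.8 and 8.51 in WT stress, and 16.0, 27.0 and 15.2 in het stress. Every WT control mouse was above every het control and every WT stress mouse, and only het stress replicate 2 reached into the WT control range. The WT control mean was 35.9 ± 13.9 (SD, n = 3) and the het control mean 16.7 ± 2.47 (SD, n = 3).

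Slc17a6, the vesicular glutamate transporter of thalamic relay neurons, had a TPM of 2.29, 1.98 and 6.85 in WT control, 1.95, 0.45 and 0.86 in het control, 3.29, 1.60 and 0.99 in WT stress, and 1.79, 1.44 and 3.21 in het stress. The 2 lowest libraries were het control replicates 2 and 3 and the third lowest was WT stress replicate 3. Its log2 CPM overlapped in each of the 5 group comparisons made here.

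Among the transcription factors, Shox2, a homeodomain factor, was highest in the WT control mice. It had 28, 25 and 124 counts in WT control, 4, 11 and 4 in het control, 0, 6 and 1 in WT stress, and 6, 17 and 6 in het stress. In TPM these were 0.71, 0.72 and 4.65, then 0.07, 0.29 and 0.11, then 0, 0.22 and 0.07, and then 0.21, 0.61 and 0.17. Every WT control mouse was above every other mouse, by a small margin over het stress replicate 2 (0.72 and 0.71 against 0.61 TPM). Only 5 libraries reached 10 counts, all 3 of WT control among them, so Shox2 passed the low-count filter through the group in which it was high and its difference from the others was in part required by that filter. The same limit applies to each count, p-value and correlation below in which Shox2 and WT control both enter.

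Gbx2, the other homeodomain factor, had 0.42, 0.39 and 0.74 TPM in WT control, 0.25, 0.33 and 0.69 in het control, 0.49, 0.45 and 0.60 in WT stress, and 0.51, 0.59 and 0.38 in het stress. All 4 groups overlapped, and the whole range rested on 21.65 to 46 counts.

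Tcf7l2 and Lef1 encode the DNA-binding partners of beta-catenin that carry out Wnt signalling. Tcf7l2 had 1.07, 2.04 and 5.30 TPM in WT control, 1.40, 1.62 and 2.27 in het control, 2.13, 2.72 and 2.51 in WT stress, and 2.28, 2.64 and 1.70 in het stress. WT control held both its highest and its lowest library. Lef1 had 1.16, 1.49 and 3.17 TPM in WT control, 0.68, 1.92 and 2.43 in het control, 1.19, 1.14 and 2.41 in WT stress, and 1.67, 1.58 and 1.47 in het stress. In each of the first 3 groups replicate 3 was the highest for Lef1, and the groups overlapped.

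Rora, a nuclear receptor of the ROR family that is also used widely outside the thalamus, had 2.59, 4.13 and 9.21 TPM in WT control, 1.89, 3.98 and 4.63 in het control, 3.06, 3.09 and 6.40 in WT stress, and 5.12, 4.17 and 4.07 in het stress. Another 2 members act at the cytoskeleton: Synpo2 (synaptopodin 2) binds actin, and Plekhg1 is an exchange factor for small GTPases. Synpo2 had 3.84, 4.46 and 13.0 TPM in WT control, 1.69, 5.70 and 8.08 in het control, 3.15, 3.62 and 10.4 in WT stress, and 5.22, 5.60 and 5.56 in het stress. Plekhg1 had 0.98, 1.90 and 7.94 TPM in WT control, 0.39, 2.19 and 2.84 in het control, 1.02, 1.82 and 2.72 in WT stress, and 2.01, 2.26 and 1.90 in het stress. All 3 genes showed one shape: replicate 3 high and replicate 1 low in WT control and het control, replicate 3 high in WT stress, and 3 close values in het stress.

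Ordered by group means in TPM, Ramp3 (13.5 to 35.9) was the highest member in every group. Prkcd (6.54 to 25.4), Synpo2 (5.16 to 7.11) and Rora (3.50 to 5.31) came next. The values of Prkcd and Synpo2 overlapped between mice in WT control, het control and WT stress, but not in het stress. Plekhg1 (1.81 to 3.61), Slc17a6 (1.09 to 3.71), Tcf7l2 (1.76 to 2.80) and Lef1 (1.57 to 1.94) overlapped in their values between mice in WT control, het control and WT stress, while in het stress all 3 Lef1 values lay below those of Tcf7l2 and Plekhg1. Gbx2 (0.42 to 0.52) was low in every group, and Shox2 (0.10 to 2.03) was lower still in the 3 groups other than WT control. The spiny neuron genes that define the striatum summed to between 4939 and 11925 TPM per library over 18 genes, against 28.2 to 155.3 TPM for the 10 members, so markers of the labelled tissue were abundant in every library. Cntnap2 itself had 40.3 to 55.1 TPM in WT control, 36.0 to 46 in het control, 39.7 to 68.3 in WT stress and 45.5 to 59.5 in het stress, so its total RNA overlapped between the genotypes; whether counted reads fall in the altered part of the gene is not known, and these levels do not check the labels.

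The first comparison set mice heterozygous for Cntnap2 beside WT mice, both without stress. All 10 had a lower estimate in het control than in WT control, with a median log2 fold change of -0.77 beside 0.00 over all genes, yet 0 of 10 passed an adjusted p of 0.05 in edgeR's quasi-likelihood test, where 0.00627% of the 15955 genes tested did (1 gene). The 3 members with an unadjusted p below 0.05, where 1.47% of all genes had one, were Shox2 at -3.52 ± 0.84 (SE), Prkcd at -1.82 ± 0.49 and Ramp3 at -0.98 ± 0.37, all with an adjusted p of 0.99999. The same 3 were the members whose log2 CPM did not overlap between these groups, each lower in het control, where 1.95% of all genes were lower without overlap. The Shox2 part of both counts is limited by its entry into the tests through its WT control counts. Slc17a6 had a log2 fold change of -1.40 ± 0.70, Plekhg1 -0.92 ± 0.61 and Tcf7l2 -0.62 ± 0.43, while Rora (-0.38), Synpo2 (-0.35), Lef1 (-0.26) and Gbx2 (-0.21) lay within 1 SE of no difference. DESeq2 called 0 members as well (smallest adjusted p 0.193; 0.0125% of genes called), whereas limma-voom with sample weights called 2, Slc17a6 (-1.98, adjusted p 0.0342) and Prkcd (-0.999, adjusted p 0.0430), among the 6.16% of all genes that it called in this comparison. The limma-voom sample weights were 0.275, 6.765 and 0.254 in WT control replicates 1 to 3. In het control they were 0.125, 2.871 and 0.876, so each group rested mostly on its replicate 2.

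Leaving out WT control replicate 3 divided the members. The median log2 fold change moved from -0.77 to 0.01, with 5 members lower and 5 higher. Tcf7l2 (0.08), Lef1 (0.14), Rora (0.20), Synpo2 (0.22) and Plekhg1 (0.10) then had estimates above 0, all smaller than their SE, and Gbx2 stood at -0.06. Shox2 (-2.35 ± 0.74), Prkcd (-0.93 ± 0.32), Slc17a6 (-0.87 ± 0.73) and Ramp3 (-0.83 ± 0.41) remained lower in het control. Of these, Shox2 and Prkcd had an unadjusted edgeR p below 0.05 (0.0095 and 0.0143), and all had an adjusted p of 0.998. The share of all genes with such an unadjusted p in this fit is not given here. Leaving out het control replicate 1 moved Slc17a6 the other way, to -2.51; that mouse had the highest Slc17a6 of its group. Slc17a6 is also used by hypothalamic neurons, and the 12 hypothalamus genes listed summed to 166 TPM in that mouse, beside 20.1 and 31.3 in the other 2 het control mice; Pmch, a neuropeptide gene of the lateral hypothalamus, had 61.4 TPM there and 0.83 and 0.75 in the others. Their part in the result was not tested.

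**Figure D2:**
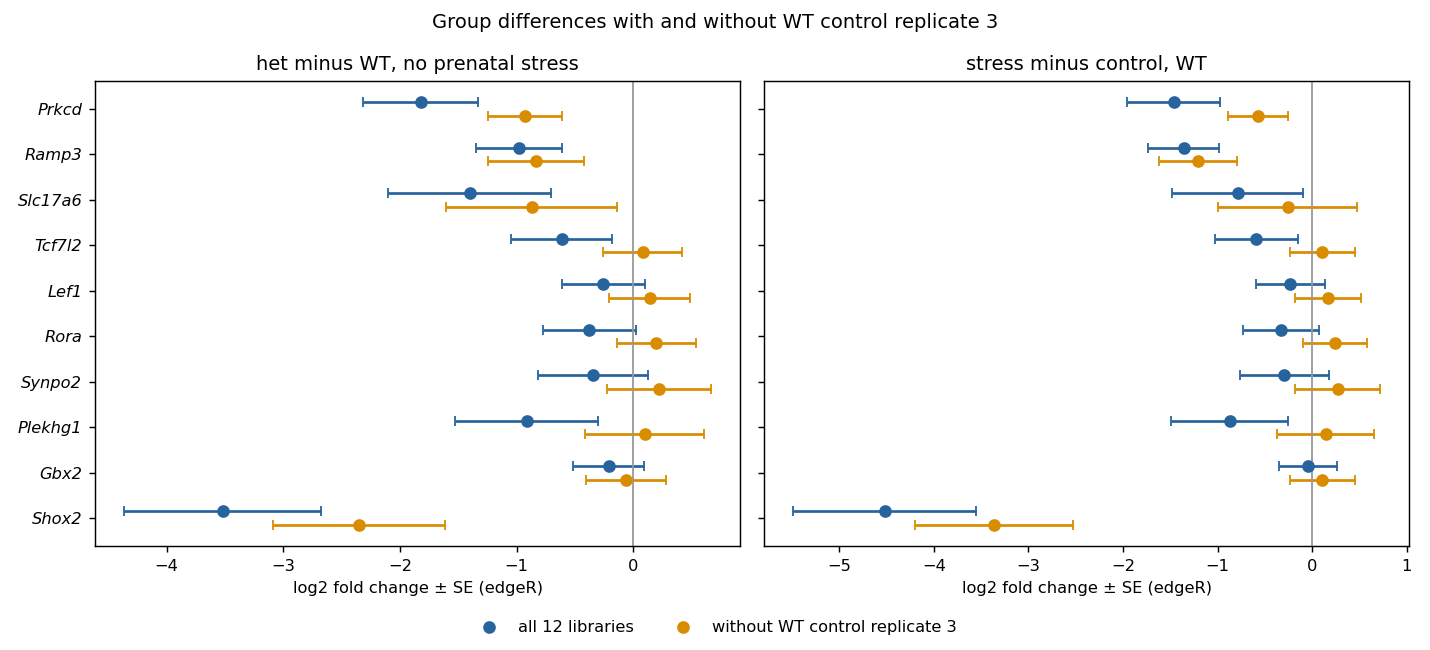
Log2 fold change ± SE from edgeR (horizontal axis) for each marker, het minus WT without stress (left) and stress minus control in WT (right), with all 12 libraries (blue) and without WT control replicate 3 (orange). Without that library Tcf7l2, Lef1, Rora, Synpo2 and Plekhg1 cross 0 in both panels, while Prkcd, Ramp3, Slc17a6 and Shox2 stay below it.

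The comparison of WT stress with WT control uses the same WT control mice, so its values are given beside the first and are not a second observation of them. Again all 10 members had a lower estimate in WT stress, with a median of -0.69 beside -0.01 over all genes, and 0 of 10 were called by edgeR, as were 0.0% of all genes. Shox2 had a log2 fold change of -4.52 ± 0.96 (SE), Prkcd -1.47 ± 0.49 and Ramp3 -1.36 ± 0.38, the 3 members with an unadjusted p below 0.05, where 2.49% of all genes had one. The other 7 ran from -0.87 (Plekhg1) to -0.04 (Gbx2). Ramp3 and Shox2 did not overlap between these groups in log2 CPM, where 3.17% of all genes were lower in WT stress without overlap. DESeq2 called Shox2 (-4.62, adjusted p 0.00654) among 0.0752% of genes called, a value limited by the entry of Shox2 into the tests through its WT control counts, and limma-voom with sample weights called 0 members among 0.27%. Without WT control replicate 3 the median was 0.11, and Shox2 (-3.36) and Ramp3 (-1.21 ± 0.41) kept estimates well below 0, Prkcd moved to -0.57 ± 0.32 and Slc17a6 to -0.26 ± 0.74. Slc17a6 also moved to -1.46 without WT stress replicate 1 and to -0.40 without WT stress replicate 3.

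Between the remaining groups the members differed little. Het stress against WT stress gave 6 lower and 4 higher estimates with a median of -0.09, from -0.20 (Prkcd) to 1.55 ± 1.07 for Shox2, which had 17 counts or fewer in each of these libraries. Stress against control in het mice gave 4 lower and 6 higher, with a median of 0.10 and the largest values for Shox2 (0.55 ± 0.91) and Slc17a6 (0.54 ± 0.70). In the first of these 0 of 10 members were called by edgeR (0.00627% of all genes) and 0 had an unadjusted p below 0.05 (0.57% of all genes). In the second 0 were called (0.0%) and 0 had such a p (1.12%). Log2 CPM overlapped for all 10 members in both, where 2.11% of all genes were lower and 3.08% higher without overlap in het stress than in WT stress, and 2.71% lower and 3.97% higher in het stress than in het control. Het stress against WT control, which again uses the WT control mice, gave 10 lower estimates, 0 members called (0.00627% of all genes) and 3 with an unadjusted p below 0.05 (1.28%). Its median of -0.73 became -0.03 without WT control replicate 3. Over all 12 libraries Prkcd, Ramp3 and Shox2 did not overlap (2.66% of all genes were lower without overlap). Here too Shox2 is limited by its entry through its WT control counts.

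Whether the stress difference depended on genotype was tested as an interaction, the stress difference in het mice minus that in WT mice. All 10 estimates were above 0, with a median of 0.76, and 0 of 10 were called by edgeR, beside 0.0% of all genes. Shox2 (5.07 ± 1.34), Prkcd (1.62 ± 0.69) and Ramp3 (1.33 ± 0.52) had an unadjusted p below 0.05, where 1.33% of all genes had one. Slc17a6 stood at 1.33 ± 0.98. Without WT control replicate 3 the median was -0.03 and Prkcd was at 0.72. Shox2 was at 3.90 there, but since its WT control counts brought it into the tests, that value does not bear on an interaction. WT control enters these contrasts as well, so the levels of its 3 mice against the other 9 are given directly. On log2 CPM, Ramp3 and Shox2 were higher in all 3 WT control mice than in any other mouse, where 0.464% of all genes were. For Ramp3 the margin was narrow, from 21.3 CPM in WT control replicate 2 to 20.6 in het stress replicate 2.

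Averaged over the other factor, the 6 het against the 6 WT mice gave a median log2 fold change of -0.34 and the 6 stressed against the 6 control mice -0.26, with 0 members called by edgeR (0.00627% and 0.0% of all genes were called). An unadjusted p below 0.05 was found for 1 member by genotype, Prkcd at -1.01 (0.708% of all genes), and for 2 by stress, Ramp3 at -0.69 and Shox2 at -1.99 (2.34%). In the 6 contrasts beyond the first 2, DESeq2 called 0 members and 0.0% to 0.0188% of all genes. Limma-voom with sample weights called 0 members there as well, and of all genes 0.0188% for het against WT under stress, 0.0877% for stress in het mice, 0.307% for het stress against WT control, 0.0% for the interaction, 0.0627% for genotype and 0.0376% for stress. On log2(TPM + 1), an exact permutation test of 6 against 6, two-sided and able to reach no p below 0.00216, gave its smallest genotype p for Prkcd (difference -0.66, p = 0.169) and its smallest stress p for Ramp3 (-0.60, p = 0.115). After adjustment over these 20 tests the smallest p was 0.921. On that scale the difference of a low gene is understated.

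Co-variation across the 12 libraries showed 2 patterns among the members. Over the 45 pairs of members, Pearson's r of log2 CPM ranged from -0.21 to 0.96 with a median of 0.46 (Spearman's coefficient, median 0.22), and 39 pairs had r above 0. Permutation p-values adjusted over both coefficients of all pairs were at or below 0.05 in both for 7 pairs. Of these, 6 were all the pairs among Lef1, Rora, Synpo2 and Plekhg1, with r from 0.89 to 0.96 and Spearman's coefficient from 0.86 to 0.95; the highest was Lef1 with Synpo2 (r = 0.960, adjusted p = 0.000675; Spearman = 0.860, adjusted p = 0.0045). These 4 kept r of 0.81 to 0.94 without WT control replicate 3, 0.61 to 0.89 without the 2 libraries farthest from the median, and 0.90 to 0.97 after each group's mean was removed.

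The seventh pair was Ramp3 with Shox2 (r = 0.862, adjusted p = 0.00353; Spearman = 0.860, adjusted p = 0.00402). It held at 0.82 without WT control replicate 3 and at 0.84 without WT stress replicate 3 and WT control replicate 3, the 2 farthest libraries, and was 0.61 after the group means were removed. Shox2 entered through its WT control counts and Ramp3 was high in the same mice, so this adjusted p is not independent support. Prkcd with Shox2 passed on Pearson's r alone (0.765, adjusted p = 0.0440; Spearman = 0.573, adjusted p = 0.225) and fell to 0.45 without WT control replicate 3 and to 0.21 without WT control replicates 3 and 1. Prkcd with Ramp3, the 2 most abundant members, had r = 0.509 (adjusted p = 0.307; Spearman = 0.462, adjusted p = 0.352), which was 0.16 without WT control replicate 3 and -0.01 after group means were removed.

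Removing WT control replicate 3 lowered the median r of the 45 pairs from 0.46 to 0.14 and left 27 above 0 (the grid of pair correlations). Slc17a6 then ran opposite to the 4 genes that varied together, with r of -0.76 against Lef1, -0.74 against Synpo2, -0.67 against Plekhg1 and -0.65 against Rora. Ramp3 did so less, from -0.58 against Rora to -0.24 against Plekhg1. Sorted by these values into Rora, Synpo2, Lef1, Plekhg1, Tcf7l2 and Gbx2 on one side and Prkcd, Ramp3, Slc17a6 and Shox2 on the other, sets chosen after the values were seen and therefore given no test, the members had a median r without that library of 0.32 and 0.22 within the sets and -0.105 between them.

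**Figure D3:**
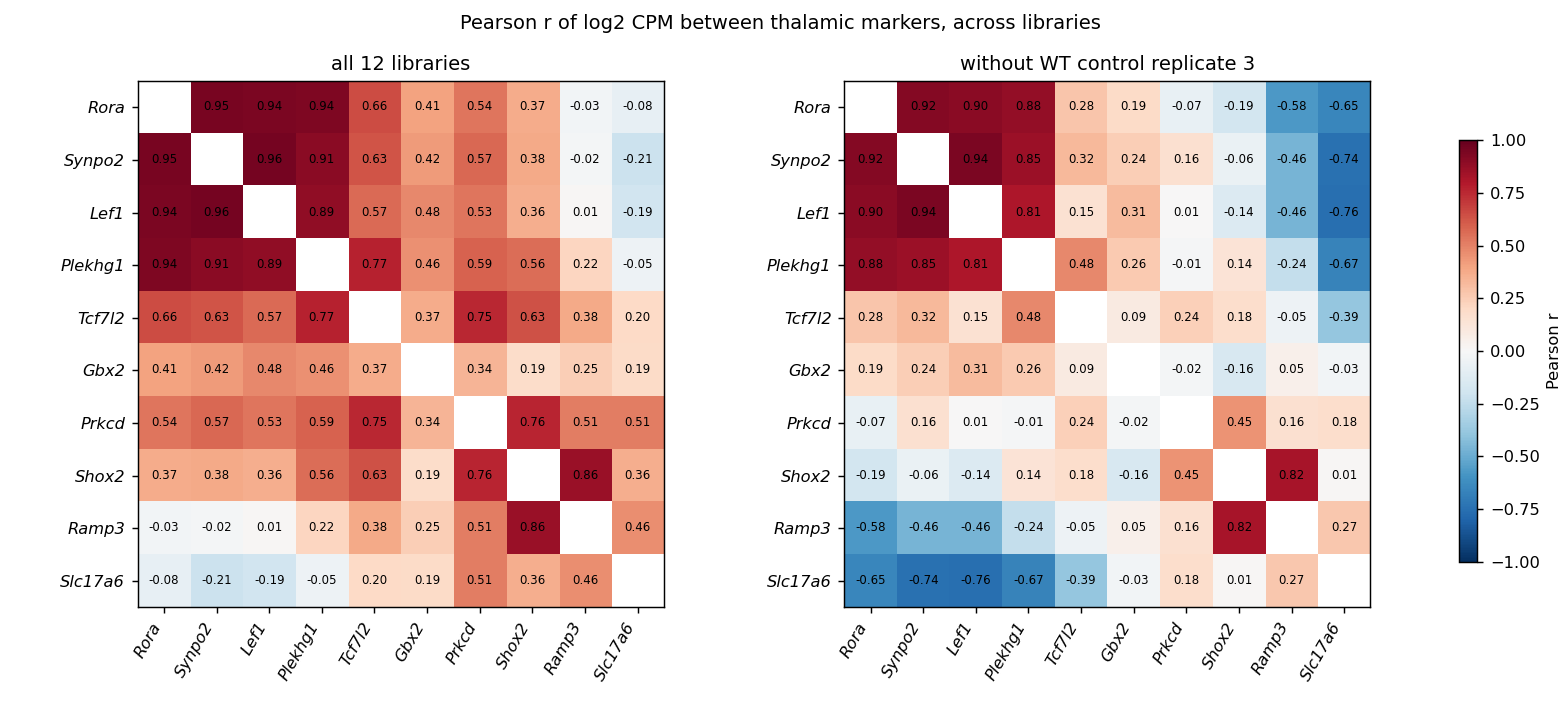
Pearson r of log2 CPM between each pair of markers (colour and printed value) over all 12 libraries (left) and over 11 without WT control replicate 3 (right). The block of Rora, Synpo2, Lef1 and Plekhg1 stays between 0.81 and 0.94 on the right, while Slc17a6 and Ramp3 are negative against all 4 of its genes.

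The members also differed in how they followed a property of the libraries. In each library the slope of log2(TPM + 1), relative to its mean over libraries, on log2 gene length was computed over genes with a mean TPM of at least 1; a positive slope means that long genes read relatively high. It was highest in WT control replicate 3 (0.228) and WT stress replicate 3 (0.226), lowest in het control replicate 1 (-0.287) and WT control replicate 1 (-0.242), and between 0.003 and 0.058 in het stress. The share of TPM from mitochondrially encoded genes was highest in the same 2 libraries (18.7% and 17.8%) and lowest in the same other 2 (9.93% and 8.51%).

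Rora followed this slope most closely (r = 0.941, adjusted permutation p = 6.667e-05; Spearman = 0.979, adjusted p = 6.667e-05, from raw values of 1e-05, the smallest that 100000 permutations can give). Synpo2 (r = 0.891, adjusted p = 0.00085; Spearman = 0.951, adjusted p = 6.667e-05), Lef1 (r = 0.861, adjusted p = 0.00168; Spearman = 0.825, adjusted p = 0.00378) and Plekhg1 (r = 0.841, adjusted p = 0.00183; Spearman = 0.839, adjusted p = 0.00378) did as well. Without the 2 libraries farthest from the median slope, r was 0.91, 0.94, 0.85 and 0.72 for these 4, and within groups it was 0.92 to 0.99. Such a correlation is common in these libraries: the r of Rora was above that of 92.62% of all genes and the r of Plekhg1 above that of 80.63%. The other 6 members had no adjusted p at or below 0.05: r was 0.54 for Tcf7l2, 0.35 for Gbx2, 0.35 for Prkcd, 0.08 for Shox2, -0.22 for Slc17a6 and -0.32 for Ramp3 (Spearman 0.44, 0.20, 0.22, -0.04, -0.18 and -0.29; smallest adjusted p 0.165). Ramp3 and Slc17a6 had r of -0.73 and -0.59 without WT control replicate 3. The measures share their libraries, since slope and level come from the same reads.

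**Figure D4:**
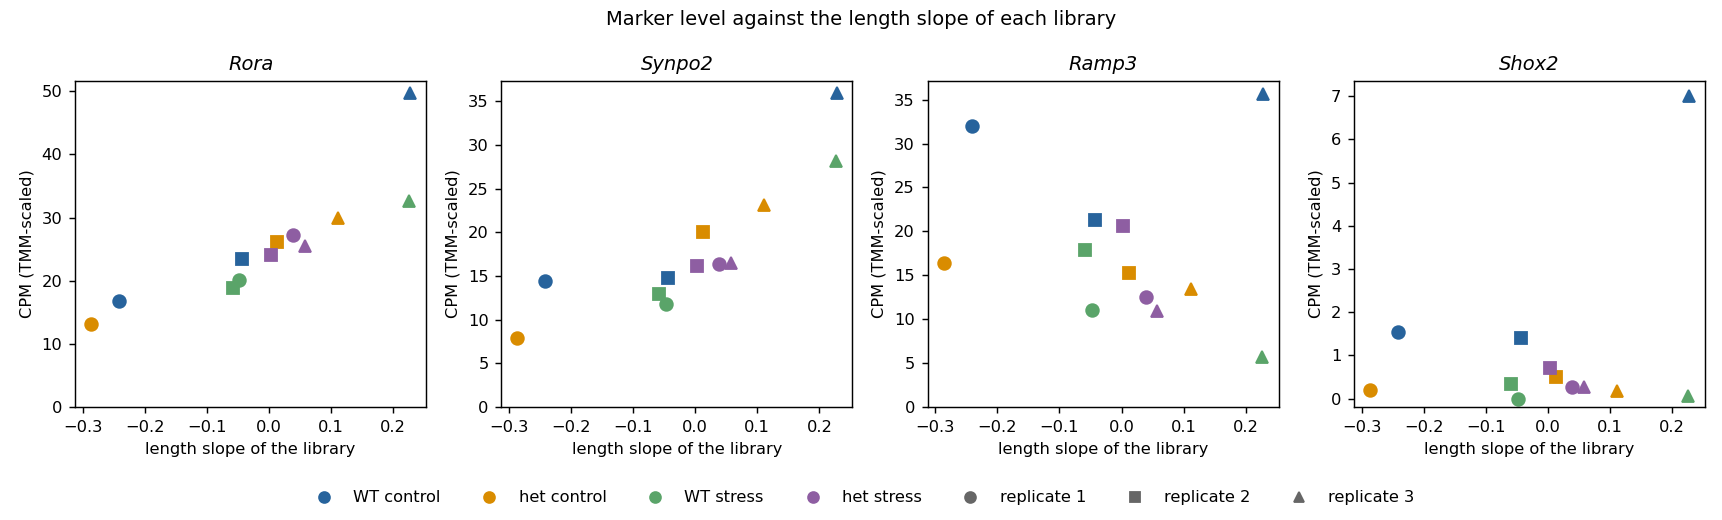
CPM scaled by TMM (vertical axis, linear) of 4 markers against the length slope of each library (horizontal axis, log2 TPM per log2 length); colour gives the group and shape the replicate number. Rora and Synpo2 climb with the slope from het control replicate 1 to WT control replicate 3, whereas Ramp3 and Shox2 are high in all 3 WT control mice and low in WT stress replicate 3, whose slope is as high.

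WT control replicate 3 and WT stress replicate 3 had nearly the same slope, so the 2 libraries were set beside the median of the other 10 (the plot of the 2 libraries). In WT control replicate 3 every member was above that median in log2 CPM, by 4.15 for Shox2, 2.59 for Prkcd, 1.73 for Plekhg1, 1.58 for Slc17a6, 1.51 for Tcf7l2, 1.21 for Synpo2, 1.17 for Ramp3, 1.06 for Rora, 0.94 for Lef1 and 0.33 for Gbx2. In WT stress replicate 3 Synpo2 (0.86), Prkcd (0.76), Lef1 (0.58) and Rora (0.46) were above it, whereas Ramp3 (-1.45), Shox2 (-1.35) and Slc17a6 (-1.21) were below it. The median over the members was 1.36 in the first library and 0.25 in the second, beside 0.00 and -0.02 over all genes. With the slope as a covariate in the edgeR fit, all 10 members still had a lower estimate in het control than in WT control (median -0.51). They did so too in WT stress against WT control (median -0.69). In both, 0 were called, with a smallest adjusted p of 0.817 and 0.155. The share of all genes called in these comparisons is not given here. An unadjusted p below 0.05 was then found for 5 members in the first comparison, where 6.01% of all genes had one, and for 6 in the second (8.14%), against 3 in each without the covariate. In the second, Rora (-0.41 ± 0.09), Synpo2 (-0.48 ± 0.15) and Plekhg1 (-0.82 ± 0.26) joined Shox2, Prkcd and Ramp3.

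**Figure D5:**
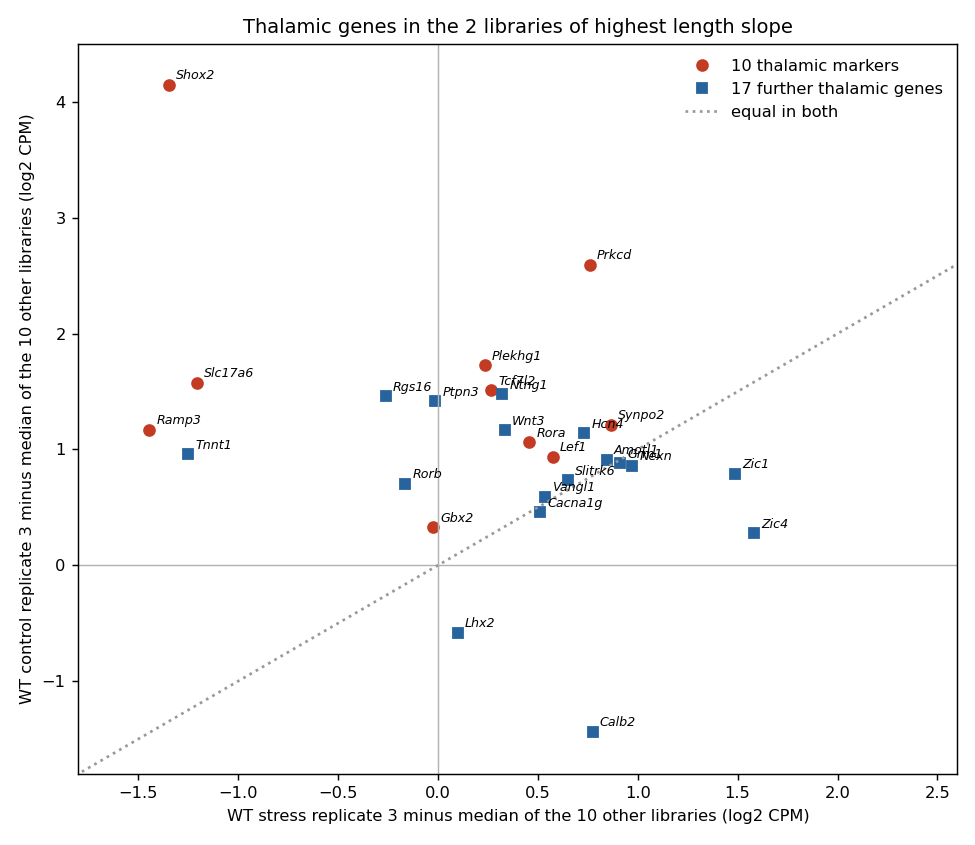
Log2 CPM of WT control replicate 3 (vertical axis) and of WT stress replicate 3 (horizontal axis), each minus the median of the 10 other libraries, for the 10 markers (red circles) and 17 further thalamic genes (blue squares). Shox2, Slc17a6, Ramp3 and Tnnt1 are high in the first library and low in the second; genes on the dotted line were equally raised or lowered in both.

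A further 18 genes known from thalamic neurons or thalamic development were listed, also with earlier results of these data known, and 17 were tested. In WT control replicate 3 their median excess was 0.86, and in WT stress replicate 3 it was 0.54. Ntng1 (netrin-G1, an axonal adhesion protein of thalamocortical neurons) was above the median by 1.47 and 0.32 in the 2 libraries. Rgs16, a regulator of G protein signalling, stood at 1.46 and -0.26, the phosphatase gene Ptpn3 at 1.42 and -0.01, and Tnnt1 (a troponin T) at 0.96 and -1.25. Calb2 (calretinin) went against the list at -1.44 and 0.77, and so did Lhx2, a LIM homeodomain factor, at -0.58 and 0.10. Zic1 and Zic4, zinc finger factors, were higher in WT stress replicate 3 (1.49 and 1.58) than in WT control replicate 3 (0.79 and 0.28). In het control against WT control 15 of the 17 had a lower estimate, with a median of -0.295 beside 0.00 over all genes. By edgeR 6 had an unadjusted p below 0.05 (1.47% of all genes) and 0 were called (0.00627%). The smallest p-values were those of Ptpn3 (-1.16 ± 0.32) and Ntng1 (-0.89 ± 0.32). In WT stress against WT control 7 were lower and 10 higher, with a median of 0.05. Lhx2 stood at 0.45 ± 0.15 and Ntng1 at -0.81 ± 0.32. Of the 17, 2 had an unadjusted p below 0.05 (2.49% of all genes) and 0 were called (0.0%).

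Since Tcf7l2 and Lef1 serve the Wnt pathway, 22 further genes of it were counted, of which 21 were tested. In het control against WT control 12 were lower and 9 higher, with a median of -0.01, and the smallest p-values were those of the corepressor gene Tle1 (0.15 ± 0.11) and of Tcf7 (0.24 ± 0.20), another factor of the TCF family. In WT stress against WT control 6 were lower and 15 higher, with a median of 0.09; Axin2, a feedback inhibitor and common Wnt target, stood at 0.33 ± 0.23 and the receptor gene Fzd3 at 0.48 ± 0.36. None of the 21 was called or had an unadjusted p below 0.05 in either comparison.

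Genes of other tissue that a punch can hold also varied between these libraries, and their part in the members' values was not tested. Genes of the habenula, which adjoins the thalamus, had a median excess of -0.14 over 5 tested genes in WT control replicate 3. The summed TPM of 7 genes was 11.4 there and 24.9 to 30.9 in the other 2 WT control mice. That sum was mostly Tac2 (29.4, 22.1 and 7.84 in replicates 1 to 3), which is also on the central amygdala list. The others were low. Gpr151 (0.57, 0.58 and 0.85), Chrna3 (0.13, 0.23 and 0.53), Chrnb4 (0.07, 0.16 and 0.32) and Pou4f1 (0, 0 and 0.13) were highest in replicate 3. Nwd2 (0.72, 1.68 and 1.60) and Chrnb3 (0.01, 0.18 and 0.08) were not. Cortical excitatory neuron genes were low in both libraries of highest slope (median excess -1.45 and -1.87 over 12 genes) and also in het control replicate 3. Their summed TPM was 167 to 344 in WT control, 175 to 279 in het control, 177 to 339 in WT stress and 300 to 377 in het stress. In each of the first 3 of these groups replicate 3 had the lowest sum. Spiny neuron genes had a median excess of 0.06 in WT control replicate 3 and 0.32 in WT stress replicate 3. Raised in the first library were also choroid plexus (0.73), septum, pallidum and basal forebrain (0.55), endothelial (0.50), and newly formed (0.46) and mature (0.36) oligodendrocyte genes. In the second they stood at -0.16, 0.36, 0.47, 0.04 and -0.315. Wnt (0.28), mural (vessel wall, 0.22) and astrocyte (0.16) genes were raised less in the first. Hypothalamus (-0.73), ependymal (-0.43) and microglia (-0.03) genes were below the median there. Central amygdala genes, a list of the other well-known site of Prkcd, had a median excess of -0.73 in WT control replicate 3 over 8 genes. That list shares Crh with the hypothalamus list and Prlr with the choroid plexus list. Sst (1044, 771 and 624 TPM in WT control replicates 1 to 3), Nts and Tac2 were lowest of that group in replicate 3. Wfs1 went the other way (37.3, 33.8 and 73.1).

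In het control against WT control, spiny neuron genes had higher estimates in 18 of 18 (median 0.22). The het control mice were divided: summed TPM was 4939, 10373 and 11133 in replicates 1 to 3, beside 7051 to 9131 in WT control. Het control replicate 1 had the lowest log2 CPM of all libraries for 12 of the 18, beside 25.79% of all genes. Mature oligodendrocyte genes were lower in 13 of 14 (median -0.29), led by Mal (-0.28 ± 0.12), a myelin membrane gene, and Ermn (-0.40 ± 0.20), and genes of the septum, pallidum and basal forebrain in 8 of 9 (median -0.27), led by Ngfr (-1.25 ± 0.51) and Chat (-0.25 ± 0.22), genes of cholinergic neurons. The latter list shares Zic1 with the further thalamic genes. The 8 hypothalamus genes tested were lower in 2 and higher in 6 (median 0.70), led by Pomc (1.02 ± 0.61) and Pmch (2.16 ± 1.47); their list summed to 29.6 to 65.4 TPM in WT control, 25.2 to 34.4 in WT stress and 22.8 to 32.8 in het stress. No gene of these 4 lists was called.

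Choroid plexus genes summed to 306 to 592 TPM in WT control, 12.3 to 865 in het control, 7.32 to 30.7 in WT stress and 13.6 to 584 in het stress, so all 3 WT control mice were above all 3 WT stress mice here too. In that comparison 12 of 12 choroid plexus genes were lower (median -2.12). An unadjusted p below 0.05 was found for 4 of them (2.49% of all genes), and 0 were called (0.0%). Mature oligodendrocyte genes summed to 9600 to 14846 TPM in WT control, 7144 to 10176 in WT stress and 10311 to 12034 in het stress. In het control replicates 1 to 3 they summed to 5585, 11482 and 10955. In WT stress against WT control 14 of 14 were lower, with a median of -0.53 and 11 with an unadjusted p below 0.05 (2.49% of all genes). They were led by Ugt8a (-0.61 ± 0.15), which makes a myelin lipid, and Gjb1 (-0.75 ± 0.18), a gap junction gene, and 0 were called (0.0%). No gene of these lists was at 0 in all 12 libraries.

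The 10 other genes whose log2 CPM was most like the mean standardised level of the members over the 12 libraries had r from 0.91 to 0.95. They were Pacsin2 (0.953), which shapes membranes in endocytosis, Nxpe3, the junction scaffold gene Patj, the phospholipase C gene Plcb4, the nuclear pore gene Ndc1, the nuclear receptor gene Esrrg, the receptor phosphatase gene Ptprd, Nefh (neurofilament heavy chain), Megf11 and Bcat1 (0.911), which handles branched-chain amino acids. All 10 were highest in WT control replicate 3: Nefh had 55.6 TPM there against a median of 15.3 in the other 11, Plcb4 25.4 against 9.30, Patj 14.0 against 3.88 and Esrrg 17.3 against 5.22. Their likeness was lower without that library, at 0.65 (Ndc1) to 0.88 (Pacsin2). Both the peak there and this fall follow largely from how the 10 genes were picked, since the members' mean level is highest in that library. The members' mean standardised level was 2.11 in WT control replicate 3, and between -0.96 (het control replicate 1) and 0.18 (het control replicate 3) in the other 11.

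The deposited transcript estimates add which forms of the members were present. Gbx2 and Slc17a6 had 1 annotated transcript each. Ramp3 RNA was assigned mostly to ENSMUST00000045374.7, with a median of 93.9% of the gene over the libraries (90.4 to 100%) and 93.0% in WT control replicate 3. For Rora the main form was ENSMUST00000034766.7 (median 74.5%, and 80.8% in WT control replicate 3). Prkcd was divided over 10 of 13 annotated transcripts with an estimate above 0, the leading one at a median of 31.5% and at 34.3% in WT control replicate 3. Tcf7l2, known for many splice forms, had 16 of 24, the leading one at a median of 42.2%. With few counts, as for Shox2, the division between transcripts is an estimate with little support.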

How the data were processed

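RNA from 12 punches was read as 1 library each. The authors deposited, for every gene and library, RSEM expected counts, TPM and a gene length, and for every transcript its percent of the gene, per the file headers; RSEM, Bowtie and mm9 (NCBIM37) are named per the submitters' processing notes, with no versions. The sources used here do not say whether counting used strand. The 5hmC tables were not used here.

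Expected counts were rounded and fitted for all 12 libraries together with 4 group means in edgeR 4.0.16 (quasi-likelihood, robust, TMM scaling, filterByExpr), leaving 15955 of 37289 genes; p-values were adjusted by Benjamini-Hochberg over them and called at 0.05. All 10 members passed the filter. DESeq2 1.42.0 and limma 3.58.1 (voom with sample weights, in R 4.3.3) were alternatives. Of the Ensembl identifiers, 32606 had a symbol. Log2 CPM used a prior count of 2, log2 TPM a pseudocount of 1, and correlations 100000 permutations. On simulated data for het against WT control, 13.0% of 200 genes changed 2-fold were called (15817 genes tested) and 85.5% of those changed 4-fold (15825 tested), with 0 and 5 false calls. The simulated counts were drawn independently for each gene, without the variation that genes share within a library, such as the length slope. These shares therefore do not give the power in the real libraries.

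Named genes are the members, Cntnap2, the 2 genes of smallest p in each list described, and the 10 genes most like the members. Rgs16, Tnnt1, Calb2, Zic1, Zic4, Wfs1, Sst, Nts, Crh, Prlr and the genes of the habenula list were named after their values were seen. The members and lists were chosen with earlier results of these data known.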

Additional observations from a re-analysis of the deposited data

How the results depend on the processing

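No member was called by edgeR under RLE or upper quartile scaling, without the filter on low counts, with only the groups compared (not run for the interaction and the averages, which use all groups), with the length slope as covariate or with any 1 of the 12 libraries left out. The share of all genes called in these fits is not given here, so these counts are no result about the members. By DESeq2, 1 member was called in WT stress against WT control; limma-voom with sample weights called 2 in het against WT control. By limma-voom the median log2 fold change of the members was 0.14 for het against WT under stress, -0.16 for het stress against WT control and 0.31 for the interaction. In het against WT control its estimates were 0.26 for Lef1, 0.15 for Rora, 0.41 for Synpo2 and 0.043 for Plekhg1, against the direction of edgeR; in WT stress against WT control those of Slc17a6 (0.066) and Gbx2 (0.27) were. Sample weights in these fits ran from 0.125 (het control replicate 1) to 6.765 (WT control replicate 2), and WT control replicate 3 had 0.254. The cause was not tested.

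Over the fits that left out 1 library, the median ranged from -0.987 to 0.008 for het against WT control, from -0.106 to 0.166 for het against WT under stress, from -0.918 to 0.109 for stress in WT, from -0.112 to 0.246 for stress in het mice, from -0.978 to -0.030 for het stress against WT control and from -0.033 to 1.04 for the interaction. The median r of member pairs ranged from 0.135 to 0.555, and was 0.642 on log2(TPM + 1). In het against WT control the range was -0.93 to 0.079 for Tcf7l2, -0.45 to 0.14 for Lef1, -0.66 to 0.20 for Rora, -0.63 to 0.22 for Synpo2 and -1.31 to 0.10 for Plekhg1. In stress against control in WT it was -0.90 to 0.11 for Tcf7l2, -0.51 to 0.17 for Lef1, -0.62 to 0.24 for Rora, -0.80 to 0.27 for Synpo2, -1.27 to 0.14 for Plekhg1 and -0.18 to 0.11 for Gbx2. Leaving out WT control replicate 3 gave the upper end for each of these genes and for the medians of het against WT control, of stress in WT and of het stress against WT control, and the lower end for the interaction and for r. The median above 0 for het against WT under stress came without WT stress replicate 3 and that below 0 for stress in het mice without het control replicate 1. Lef1 was also above 0 (0.015) in het against WT control without het control replicate 1.

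Further fits were chosen after seeing the data. Without both WT libraries of highest length slope, the median was 0.013 for het against WT control, 0.163 for het against WT under stress, -0.100 for stress in WT, -0.029 for het stress against WT control and 0.206 for the interaction. There Tcf7l2 (0.083), Lef1 (0.143), Rora (0.20), Synpo2 (0.223) and Plekhg1 (0.101) were above 0 in het against WT control, and Slc17a6 (0.136), Tcf7l2 (0.031) and Gbx2 (0.147) in stress against control in WT. Without WT control replicate 3 and with the slope as covariate, Tcf7l2 was at 0.0064 in het against WT control, and Slc17a6 (0.501) and Gbx2 (0.015) were above 0 in stress against control in WT.

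The replicate numbers were not used to pair samples, since the labels give them no shared meaning and not every same-numbered pair correlated. Over 18 pairs of libraries with the same number, deviations from the group means correlated at -0.26 to 0.67 (mean 0.17, against -0.09 over 36 other pairs). In WT control, het control and WT stress, the libraries numbered 3 correlated at 0.56 to 0.67 and those numbered 1 at 0.34 to 0.67, while het stress libraries correlated with same-numbered ones at -0.26 to 0.24. With the replicate number as a block in the edgeR fit, the median was -0.67 for het against WT control and -0.60 for stress in WT. In that fit 0 members were called (smallest adjusted p 0.836), and the share of all genes called is not given here. Depth limits Shox2 and Gbx2 most, at 0 to 124 and 21.65 to 46 counts.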
